A study of Mus musculus with 23 samples.

Results

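The red blood cell genes described here were Hba-a1 and Hba-a2, which encode the alpha chain of adult hemoglobin, Hbb-bs and Hbb-bt, which encode the beta chain, and Alas2, which encodes the erythroid form of the first enzyme of heme synthesis. They are 5 of the 22310 named genes of the count table and were taken by symbol from it. They were chosen with earlier results in view, because hemoglobin transcripts were low in wild-type mice given PLX3397, so the comparison of that group with the wild-type controls is a description and not a test of them. All 5 passed the filter on low counts. The samples were brain RNA from C57BL/6J mice, 23 libraries in 6 groups. Csf1R-G793A mice, which carry an altered CSF1 receptor, received chow with PLX3397 at 290 mg/kg, chow with PLX5622 at 1200 mg/kg or control chow for 14 days, 4 libraries each. Wild-type mice received the same chows, with 4 libraries on each inhibitor and 3 on control chow. PLX3397 (pexidartinib) and PLX5622 are small-molecule inhibitors of the CSF1 receptor, the receptor tyrosine kinase on which microglia depend for survival. Polyadenylated RNA was sequenced. The labels say nothing of perfusion, brain region, sex or sequencing batch, and they do not state that the libraries of a group are different animals, so the spread behind each p-value may be partly technical.

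Hemoglobin carries oxygen as a tetramer of alpha and beta chains, each holding a heme group. Its genes are transcribed at very high levels in erythroblasts under the factors GATA1 and KLF1, and reticulocytes, the youngest circulating red cells, still carry the transcripts after the nucleus is lost. In bulk brain RNA these messages come mostly with the blood left in the vessels, although low globin expression has been described in some neurons and glia. Alas2 is restricted to the erythroid lineage, whereas its paralog Alas1 serves heme synthesis in all cells.

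The promoters of the 5 genes are given as a description, and a link between their motifs and the levels measured here was not tested. The 250 bases before each RefSeq start are printed 5′ to 3′ on the gene's own strand (build GRCm38.p6), and all 5 genes were matched by symbol. Capitals mark 4 motifs searched on both strands: the erythroid GATA motif (AGATAA with its variant AGATAG, and TGATAA with its variant TGATAG), the KLF1-type motif CACCC, the CCAAT box and the TATA-type motif ATATAA. The windows are Hba-a1 at chr11:32283422-32283671 (plus strand), Hbb-bs at chr7:103827929-103828178 (minus strand), Hbb-bt at chr7:103813924-103814173 (minus strand) and Alas2 at chrX:150547167-150547416 (plus strand).
Hba-a1: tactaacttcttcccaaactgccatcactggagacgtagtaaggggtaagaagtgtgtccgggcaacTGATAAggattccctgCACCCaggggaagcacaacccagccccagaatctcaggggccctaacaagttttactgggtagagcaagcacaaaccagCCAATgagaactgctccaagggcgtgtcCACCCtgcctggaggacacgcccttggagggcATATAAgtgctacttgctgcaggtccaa
Hbb-bs: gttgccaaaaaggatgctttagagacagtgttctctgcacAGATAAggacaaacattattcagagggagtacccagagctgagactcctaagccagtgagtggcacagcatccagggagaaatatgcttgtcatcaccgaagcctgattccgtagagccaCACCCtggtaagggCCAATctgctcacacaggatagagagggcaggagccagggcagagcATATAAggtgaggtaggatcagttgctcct
Hbb-bt: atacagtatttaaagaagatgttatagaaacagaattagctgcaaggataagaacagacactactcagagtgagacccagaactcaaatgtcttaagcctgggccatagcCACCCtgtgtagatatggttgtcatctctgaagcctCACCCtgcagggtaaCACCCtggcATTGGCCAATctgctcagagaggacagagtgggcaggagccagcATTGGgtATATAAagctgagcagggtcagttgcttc
Alas2: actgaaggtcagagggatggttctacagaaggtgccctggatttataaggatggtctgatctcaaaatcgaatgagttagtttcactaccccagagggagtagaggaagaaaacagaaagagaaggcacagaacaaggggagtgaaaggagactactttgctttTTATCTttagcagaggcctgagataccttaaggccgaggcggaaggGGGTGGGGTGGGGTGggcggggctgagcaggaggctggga

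The Hba-a2 window, at chr11:32296242-32296491 on the plus strand, is not printed because it was identical to that of Hba-a1 over all 247 bases that the 2 windows share. Hbb-bs and Hbb-bt were 73.3% identical over 243 aligned bases. Hba-a1, Hba-a2 and Hbb-bs held all 4 motifs, which 0.525% of the 27025 promoters of the same length also did. The Hbb-bt window held CACCC and CCAAT at 3 places each and ATATAA once, with none of the 4 GATA spellings. The Alas2 window held 1 GATA motif, written TTATCT on this strand, and 3 CACCC motifs, written GGGTG, with neither CCAAT nor ATATAA. Among all promoters 27.1% held the GATA motif, 51.3% CACCC, 34.5% CCAAT and 9.51% ATATAA. No base lay in more than 1 motif. A match is a run of letters and no evidence that a factor binds there.

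The libraries held 26312685 to 48174788 counts, with overlapping ranges between the groups. Hemoglobin transcripts made up 0.00358% to 0.0457% of them. Genes of neurons, astrocytes and oligodendrocytes listed to check the tissue summed to between 10453 and 11905 CPM (counts-per-million, on TMM-scaled library totals) in the 23 libraries, with 11 of 11 tested. None was called by edgeR, DESeq2 or limma-voom in any comparison, with an unadjusted edgeR p under 0.05 in 8 of 121 gene-by-comparison tests. The share over all genes and comparisons, beside which the same count for each list below is to be read, was 8.39%. Csf1r, the gene of the targeted receptor, stood at 17.0 to 28.9 CPM in WT PLX3397, 5.92 to 15.8 CPM in WT PLX5622, 69.9 to 79.7 CPM in G793A PLX3397, 58.8 to 77.3 CPM in G793A PLX5622, 78.5 to 88.4 CPM in G793A controls and 92.8 to 95.1 CPM in WT controls, which does not by itself check the G793A allele. 1 library, G793A PLX5622 replicate 3, stood apart in several blood cell transcripts and is described below.

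The copies within each chain are hard to tell apart by sequence. Transcripts of Hba-a1 and Hba-a2 shared 477 words of 31 bases, 71.3% of those of Hba-a1 and 91.0% of those of Hba-a2. Hbb-bs and Hbb-bt shared 400 such words, 66.9% and 59.4% of theirs. Hba-a1 and Hbb-bs, the only alpha and beta transcripts compared, shared 0. In the deposited table the counts of Hba-a1 and of Hba-a2 were fractional in 23 of 23 libraries while their sum was a whole number in all 23, to within 0.01, and the same held for Hbb-bs and Hbb-bt. Reads that match both copies were therefore divided between them by estimation, and values of a single copy are less certain than those of the pair. The alpha pair held 612 to 6939 counts per library with a median of 2071, and the beta pair 677 to 7842 with a median of 2835. Alas2 held 25.1 to 147 counts with a median of 63.6, so its value in one library is the least precise of the 5. Its count was whole in only 1 of 23 libraries, so it too rests partly on reads divided by estimation. The features it shared them with were not identified.

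Among the alpha-globin genes, Hba-a2 had 17.9, 16.8, 29.9 and 11.5 CPM in the 4 WT PLX3397 libraries. It had 99.8, 35.7, 76.9 and 34.0 CPM in WT PLX5622 and 76.5, 22.8, 26.3 and 42.4 CPM in G793A PLX3397. It had 58.4, 36.5, 72.7 and 39.2 CPM in G793A PLX5622, 74.6, 46.1, 44.4 and 148 CPM in G793A controls, and 99.6, 100.5 and 58.2 CPM in WT controls. The WT PLX3397 libraries lay below every library of the WT control, G793A control, G793A PLX5622 and WT PLX5622 groups and overlapped with the G793A PLX3397 group. Its copy Hba-a1 had 7.30, 9.80, 17.2 and 5.86 CPM in WT PLX3397 and 41.5, 16.1, 38.0 and 12.1 CPM in WT PLX5622. It had 28.5, 10.1, 13.3 and 21.7 CPM in G793A PLX3397, 24.5, 13.6, 40.3 and 18.99 CPM in G793A PLX5622, 31.3, 19.3, 23.6 and 63.4 CPM in G793A controls, and 46.2, 49.0 and 26.3 CPM in WT controls. For this copy the highest WT PLX3397 library reached into the ranges of all 3 other inhibitor groups but into neither control group.

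Of the beta-globin genes, Hbb-bs had 27.1, 29.2, 43.5 and 16.3 CPM in WT PLX3397 and 128, 49.6, 102 and 43.5 CPM in WT PLX5622. It had 91.7, 28.6, 32.3 and 41.2 CPM in G793A PLX3397, 73.3, 50.6, 106 and 51.4 CPM in G793A PLX5622, 99.97, 56.3, 79.8 and 204 CPM in G793A controls, and 134, 117 and 72.0 CPM in WT controls. Within WT PLX5622, replicates 2 and 4 were low while replicates 1 and 3 lay within the range of the WT controls. Hbb-bt, the minor beta gene here, had 4.67, 4.59, 8.54 and 2.86 CPM in WT PLX3397 and 24.3, 7.998, 21.3 and 8.14 CPM in WT PLX5622. It had 16.9, 5.47, 7.34 and 14.7 CPM in G793A PLX3397, 12.9, 10.2, 22.7 and 9.58 CPM in G793A PLX5622, 17.8, 10.2, 13.2 and 35.9 CPM in G793A controls, and 23.03, 23.8 and 14.3 CPM in WT controls. The libraries stood in nearly the same order as for the alpha chain.

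Alas2 had 1.0999, 0.671, 1.22 and 0.736 CPM in WT PLX3397 and 4.05, 1.74, 3.24 and 1.18 CPM in WT PLX5622. It had 2.48, 0.835, 1.07 and 2.06 CPM in G793A PLX3397 and 1.57, 1.76, 2.45 and 1.81 CPM in G793A PLX5622. Controls had 1.89, 1.61, 1.18 and 4.49 CPM in the G793A group and 3.19, 2.79 and 2.501 CPM in the WT group. For Alas2 the WT controls lay above all libraries of WT PLX3397, G793A PLX3397 and G793A PLX5622, and overlapped with WT PLX5622 and the G793A controls. Levels per kilobase of transcript, which allow the genes to be compared, had the same order in the 6 groups. In WT PLX3397 they averaged 46.2 CPM per kilobase for Hbb-bs, 34.3 for Hba-a2, 14.4 for Hba-a1, 7.35 for Hbb-bt and 0.457 for Alas2. In WT controls they averaged 171 CPM per kilobase for Hbb-bs, 155 for Hba-a2, 57.9 for Hba-a1, 29.0 for Hbb-bt and 1.39 for Alas2.

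The 4 hemoglobin genes together had 57.0, 60.4, 99.2 and 36.5 CPM in WT PLX3397, a mean of 63.3 ± 26.2 CPM (SD, n = 4) and 24.8% of the WT control mean. They had 214, 67.0, 79.2 and 120 CPM in G793A PLX3397, with a mean of 120 ± 66.4 CPM (SD, n = 4) and 47.1% of the WT control mean. They had 169, 111, 241 and 119 CPM in G793A PLX5622, with a mean of 160 ± 59.9 CPM (SD, n = 4) and 62.9% of it. Ordered by their means, the groups thus started with WT PLX3397, G793A PLX3397 and G793A PLX5622. WT PLX5622 came next with 294, 109, 238 and 97.7 CPM, a mean of 185 ± 96.6 CPM (SD, n = 4) and 72.5% of the WT control mean. The G793A controls had 224, 132, 161 and 451 CPM, a mean of 242 ± 145 CPM (SD, n = 4) and 95.03% of it. The WT controls had 303, 290 and 171 CPM, a mean of 255 ± 72.8 CPM (SD, n = 3). Each group overlapped with its neighbour in this order, and the sum of the 4 genes was not itself tested between groups. Without replicate 4 the G793A controls averaged 172 CPM, 67.6% of the WT control mean, which puts them below WT PLX5622.

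**Figure D1:**
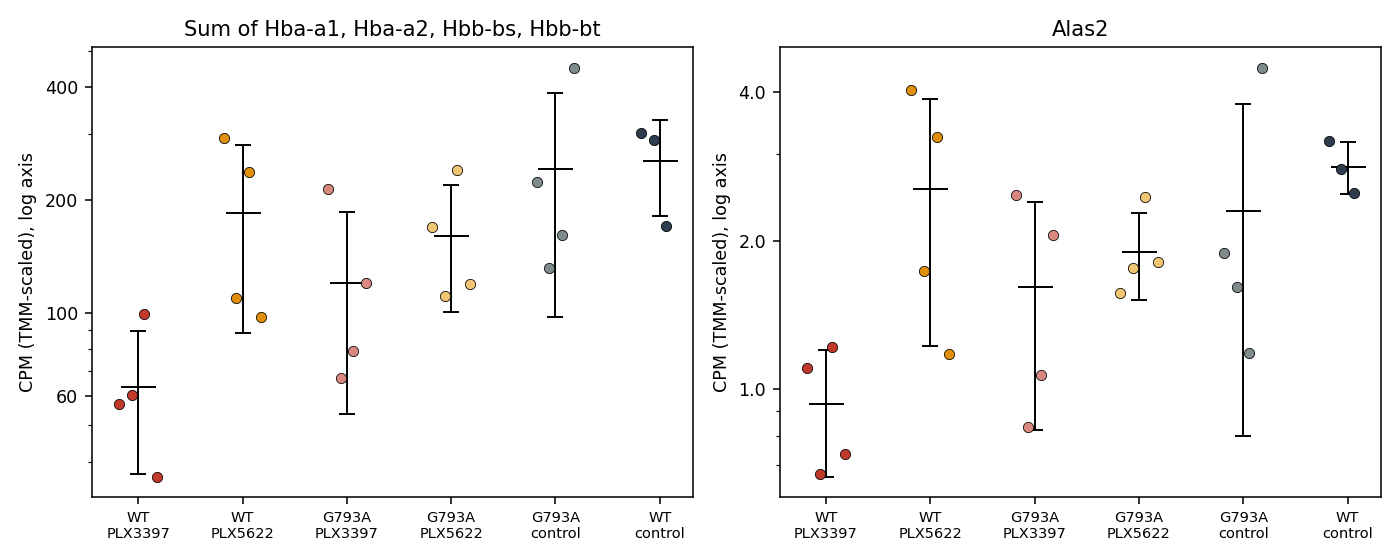
Levels in CPM (log axes) of the 4 hemoglobin genes summed (left) and of Alas2 (right) in each library; points are libraries, horizontal bars with whiskers the group mean ± SD (n = 4, and 3 for WT controls). The 4 WT PLX3397 libraries run from 36.5 to 99.2 CPM of hemoglobin and the 3 WT controls from 171 to 303 CPM, and the libraries of the other groups lie between 67.0 and 451 CPM.

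These genes were among the more variable ones between libraries of a single group. Their coefficient of variation within a group ran from 12.1% for Alas2 in WT controls to 65.1% for Alas2 in G793A controls, against a median over all tested genes of 6.75% to 10.4% by group. The biological coefficient of variation estimated by edgeR was 0.380 for Alas2 and 0.454 to 0.476 for the hemoglobin genes, against a common value of 0.0998 over all genes. The highest library for hemoglobin, G793A control replicate 4, was 12.4-fold above the lowest, WT PLX3397 replicate 4. For Alas2 the highest library was G793A control replicate 4 as well, 6.69-fold above the lowest, WT PLX3397 replicate 2.

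In the comparison on which the genes were chosen, WT PLX3397 against WT controls, all 5 were lower. The log2 fold changes were −2.01 ± 0.54 (SE) for Hba-a1, −2.18 ± 0.53 for Hba-a2 and −1.89 ± 0.52 for Hbb-bs. They were −1.97 ± 0.54 for Hbb-bt and −1.60 ± 0.45 for Alas2. The 2 groups did not overlap for any of the 5 genes. The share of all genes without overlap between these groups was not counted, so nothing is read from this. At an edgeR adjusted p of 0.05, adjusted over the 16209 genes tested, 1 of the 5 was called, Hba-a2, where 1.52% of all genes were. That count is part of how the genes were picked and nothing is read from it. With the copies of each chain added together before the fit, the log2 fold change was −2.12 ± 0.53 for alpha-globin and −1.90 ± 0.52 for beta-globin, and 0 of the 3 quantities (Alas2 included) was called by edgeR, with an adjusted p of 0.0555 for alpha-globin. With DESeq2 5 members were called, where 1.91% of all genes were, and with limma-voom 3, where 1.58% were. By edgeR the count was 0 when any one library of the 2 groups other than WT PLX3397 replicate 3 was left out. In bulk RNA, fewer red cells in the tissue and less hemoglobin RNA per red cell cannot be told apart.

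With PLX5622 in place of PLX3397, wild-type mice showed smaller differences from the same WT controls. The log2 fold changes ran from −0.59 ± 0.52 (SE) for Hba-a1 to −0.14 ± 0.42 for Alas2, with a median of −0.41 over the 5 genes and 0.01 over all genes. By edgeR 0 of 5 were called, where 1.66% of all genes were, and limma-voom and DESeq2 called 0 as well. Before adjustment 0 of 5 were below 0.05, where 8.43% of all genes were. The 95% interval for Hba-a2 was −1.55 to 0.59, which overlaps with the interval of −3.29 to −1.07 for PLX3397. The 2 chows differed in dose, 290 mg/kg for PLX3397 and 1200 mg/kg for PLX5622. Set directly against WT PLX3397, WT PLX5622 had log2 fold changes from 1.42 ± 0.52 for Hba-a1 to 1.70 ± 0.50 for Hba-a2, with a median of 1.48 against 0.00 over all genes. Before adjustment 5 of 5 were below 0.05, where 4.10% of all genes were, but 0 of 5 were called by edgeR, DESeq2 or limma-voom, the edgeR adjusted p being at least 0.764, and 0% of all genes were called. This comparison shares its WT PLX3397 libraries with the one on which the genes were chosen.

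In mice carrying Csf1R-G793A the inhibitor groups were compared with the G793A controls, which share the allele and had no part in the choice of the genes. On PLX3397 the log2 fold changes were −1.18 ± 0.48 (SE) for Hbb-bs, −0.91 ± 0.50 for Hba-a1, −0.90 ± 0.48 for Hba-a2, −0.81 ± 0.49 for Hbb-bt and −0.52 ± 0.40 for Alas2. For all 5 genes the 2 groups overlapped, and 0 of 5 genes were called by edgeR, DESeq2 or limma-voom, where edgeR called 0.00617% of all genes. Before adjustment 1 of the 5, Hbb-bs, was below 0.05 (edgeR adjusted p = 0.389), as were 11.7% of all genes. On PLX5622 the log2 fold changes ran from −0.65 ± 0.47 for Hbb-bs to −0.27 ± 0.40 for Alas2, with a median of −0.50. Here too 0 of 5 were called by the 3 tools, and 0% of all genes were called by edgeR. Of the 5, 0 had an unadjusted p under 0.05, where 16.3% of all genes did. The 95% intervals for Hba-a2 ran from −1.91 to 0.11 on PLX3397 and from −1.60 to 0.40 on PLX5622. G793A PLX5622 set against G793A PLX3397 gave log2 fold changes from 0.25 ± 0.41 for Alas2 to 0.53 ± 0.48 for Hbb-bs. The 3 tools called 0 of 5, where edgeR called 0.00617% of all genes, and 0 had an unadjusted p under 0.05, where 6.85% of all genes did.

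Against the WT controls, which several comparisons share, the G793A groups gave the following values. G793A PLX3397 had a median log2 fold change of −1.04 over the 5 genes, from −1.15 ± 0.51 (SE) for Hbb-bs to −0.83 ± 0.43 for Alas2. By edgeR 0 of 5 were called, where 0.00617% of all genes were, 2 of 5 (Hba-a1 and Hbb-bs) were below 0.05 before adjustment, where 7.24% of all genes were, and limma-voom and DESeq2 called 0. G793A PLX5622 had a median of −0.62, and the G793A controls had a median of −0.14, from −0.31 ± 0.42 for Alas2 to 0.03 ± 0.50 for Hbb-bs. In both, 0 of 5 were called by the 3 tools and 0% of all genes were called by edgeR. In both, 0 of 5 had an unadjusted p under 0.05, where 6.76% of all genes did for G793A PLX5622 and 11.1% for the G793A controls. For the allele alone the 95% interval was −1.03 to 1.09 for Hbb-bs and −1.18 to 0.56 for Alas2. All 5 intervals included a 2-fold decrease, and the one for Hbb-bs also a 2-fold increase.

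Whether the response to an inhibitor differed between the genotypes was tested as an interaction, the G793A response minus the WT response. The PLX3397 interaction subtracts the WT PLX3397 response on which the genes were chosen, so its sign and size are not independent of the choice and are given as a description. Its estimates were positive for all 5 genes, from 0.71 ± 0.70 (SE) for Hbb-bs to 1.27 ± 0.71 for Hba-a2 on the log2 scale, with a median of 1.10. The 95% intervals included 0, as −0.22 to 2.77 for Hba-a2. By edgeR, DESeq2 or limma-voom 0 of 5 were called, where edgeR called 0.555% of all genes. At an unadjusted p under 0.05 there were 0 of 5, where 4.12% of all genes passed. For PLX5622 the median was −0.12 and the range −0.23 ± 0.69 for Hbb-bs to 0.09 ± 0.72 for Hba-a1. The 3 tools called 0 of 5, where edgeR called 0.808% of all genes, and 0 had an unadjusted p under 0.05, where 7.44% of all genes did. For PLX5622 a difference between the genotypes was thus not shown.

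**Figure D2:**
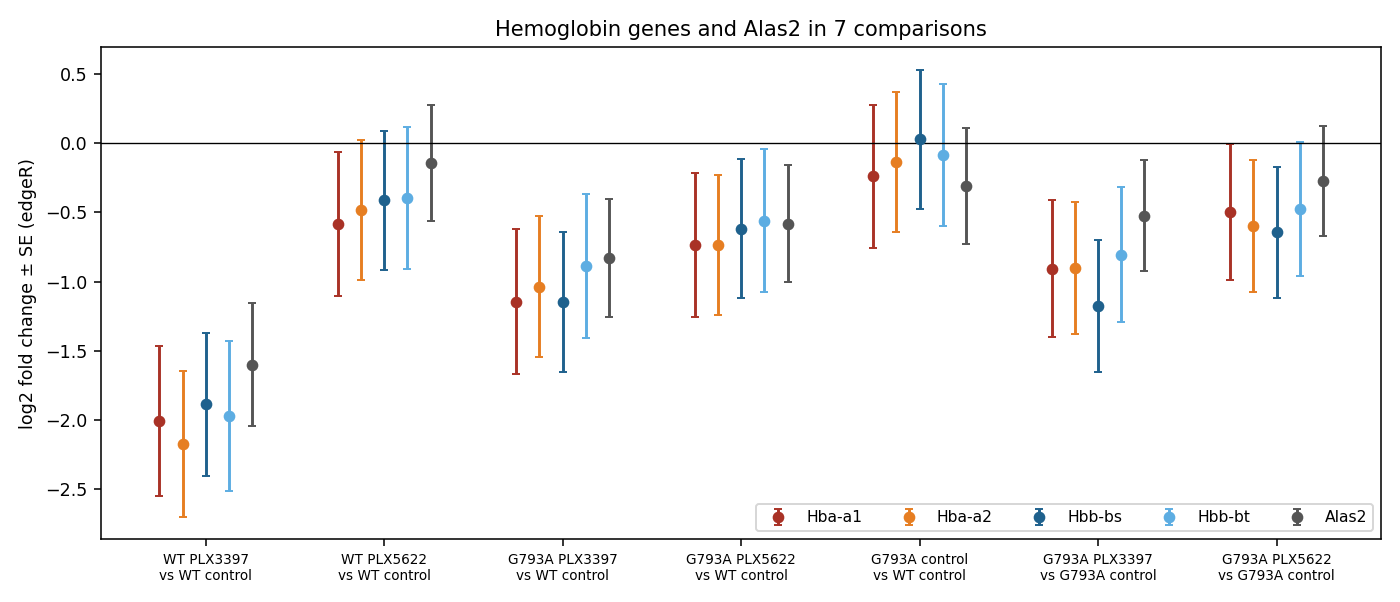
Log2 fold changes ± SE (edgeR) of the 5 genes, by colour, in 7 comparisons along the horizontal axis; 0 is no difference. The values against WT controls are lowest for WT PLX3397 (−1.60 to −2.18), which is the comparison the genes were chosen on, and within each comparison the error bars of the 5 genes overlap.

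The 5 genes varied together. After each group's mean was subtracted, log2 CPM of alpha-globin and beta-globin had a Pearson correlation of 0.99 and a Spearman correlation of 0.98 over the 23 libraries, and a Pearson correlation of 0.98 without the 2 libraries farthest from the median. Alas2 followed the mean of the 4 hemoglobin genes with a Pearson correlation of 0.88 and a Spearman correlation of 0.87. Without the 2 farthest libraries its Pearson correlation was 0.83. Whether Alas2 shares reads with the globins was not checked. Between single genes the correlation ran from 0.84 for Hbb-bs with Alas2 to 0.98 for Hba-a2 with Hbb-bs. These are descriptions of genes chosen for a shared pattern, and libraries also share their depth and scaling.

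**Figure D3:**
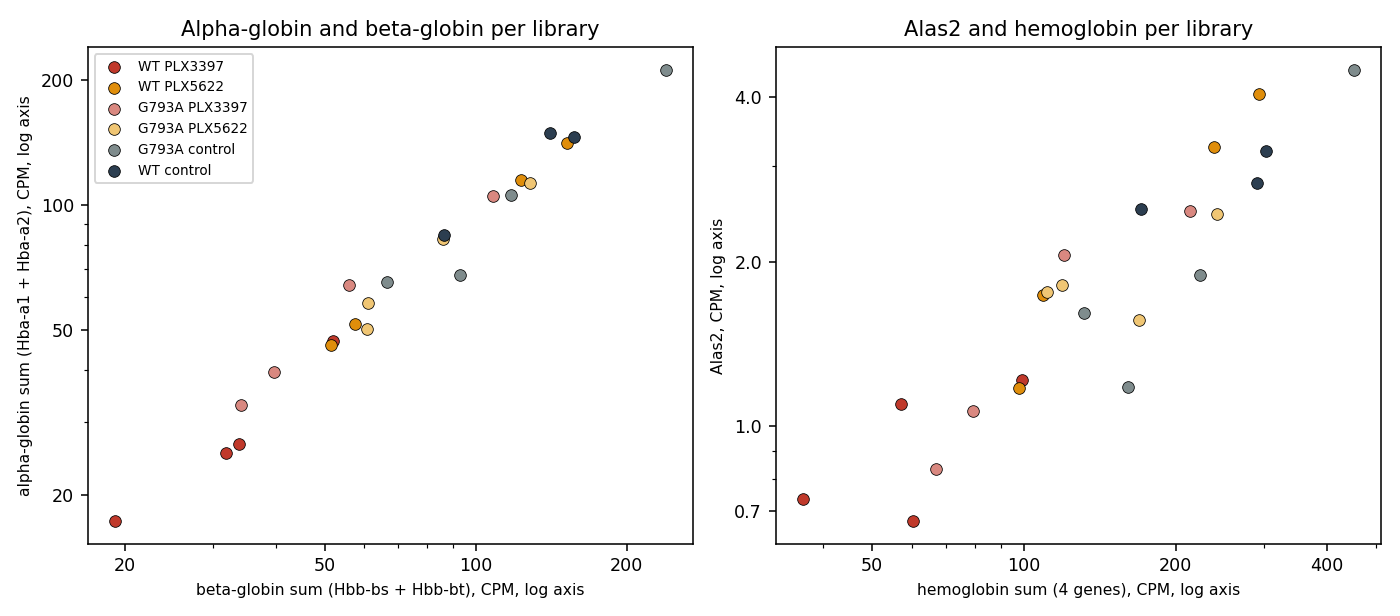
Left: alpha-globin against beta-globin, each the summed CPM of its 2 genes; right: Alas2 against the sum of the 4 hemoglobin genes, in CPM; all axes are log scales and each point is 1 of 23 libraries, coloured by group. The points form a narrow band on the left and a wider one on the right. On each axis the lowest library is from WT PLX3397 and the highest is G793A control replicate 4. G793A PLX3397 replicates 2 and 3 lie below the highest WT PLX3397 library on each axis.

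The make-up of the hemoglobin message moved far less than its amount. Alpha-globin counts per beta-globin count averaged 0.847 ± 0.0662 in WT PLX3397, 0.912 ± 0.0191 in WT PLX5622, 1.02 ± 0.0855 in G793A PLX3397, 0.905 ± 0.0651 in G793A PLX5622, 0.875 ± 0.105 in G793A controls (SD, n = 4 each) and 0.990 ± 0.0685 in WT controls (SD, n = 3). The range over all libraries was 0.731 to 1.15, and the WT PLX3397 libraries, at 0.788 to 0.905, lay just below the WT controls at 0.928 to 1.06. Hba-a1 made up 26.2% to 36.8% of alpha-globin counts. Hbb-bt made up 13.6% to 17.7% of beta-globin counts in all libraries but the pair G793A PLX3397 replicates 3 and 4, at 18.5% and 26.4%. Replicate 4 of that group also had the highest ratio of alpha to beta counts. Alas2 counts per 1000 hemoglobin counts were 19.2, 11.2, 12.2 and 19.95 in WT PLX3397, 8.49, 12.2, 7.39 and 9.977 in G793A controls and 10.5, 9.65 and 14.6 in WT controls. The ranges of the groups overlapped, and the lower total of WT PLX3397 left few Alas2 counts in each library.

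**Figure D4:**
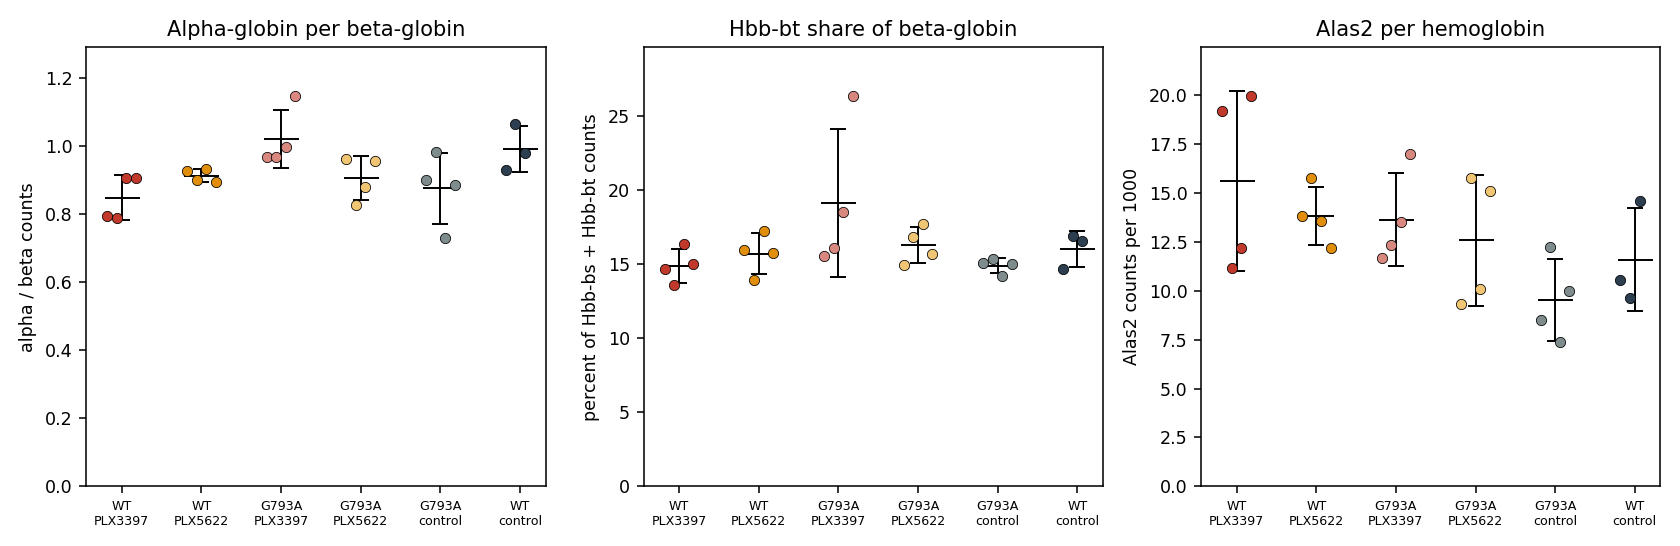
Alpha-globin per beta-globin count (left), Hbb-bt as a percentage of beta-globin counts (middle) and Alas2 counts per 1000 hemoglobin counts (right), by group; points are libraries, bars the mean ± SD (n = 4, and 3 for WT controls). The 26.4% point in the middle panel is G793A PLX3397 replicate 4, and Alas2 per hemoglobin is spread from 7.39 to 19.95 with all groups overlapping WT controls.

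Other genes tied to globins and red cells were tested beside the 5. Of 9 other globins 4 were tested (Hbq1a, Ngb, Cygb and Mb) and 0 were called by edgeR, DESeq2 or limma-voom in any of the 11 comparisons, with an unadjusted edgeR p under 0.05 in 2 of 44 tests. Cytoglobin (Cygb), a globin of fibroblast-like and other non-erythroid cells, had 61.9 ± 3.77 CPM in WT PLX3397 (SD, n = 4) and 63.3 ± 4.17 CPM in WT controls (SD, n = 3). Neuroglobin (Ngb), the globin of neurons, had 10.6 ± 1.29 CPM and 10.2 ± 2.86 CPM in these groups. The embryonic globins Hba-x, Hbb-bh1 and Hbb-y were all below the filter, with Hbb-bh1 at 0 in every library. Of 21 genes listed for their role in red cells and their precursors 7 were tested, 13 fell below the filter and 1, Ahsp, had no row in the table. By the same 3 tools 0 were called in any comparison, with 6 of 77 tests below 0.05 before adjustment by edgeR. Most counts of the 7 came from genes that brain cells also express, so this count says little of red cells. Among them were the membrane skeleton genes Add2 (415 ± 27.7 CPM in WT PLX3397, 391 ± 19.03 CPM in WT controls), Sptb and Ank1. Slc4a1, the band 3 anion exchanger of the red cell membrane, had 0.0917, 0.0268, 0.194 and 0.0283 CPM in WT PLX3397 and 0.0846, 0.149 and 0.0495 CPM in WT controls. The groups overlapped, and the log2 fold change was −0.11 ± 1.07 (SE), with a 95% interval of −2.32 to 2.10. The 13 genes below the filter, among them the transcription factors Gata1 and Klf1, summed to 0.644 to 0.990 CPM in WT PLX3397, 0.659 to 1.09 CPM in WT PLX5622, 0.701 to 1.03 CPM in G793A PLX3397, 0.930 to 3.17 CPM in G793A PLX5622, 0.682 to 1.03 CPM in G793A controls and 1.13 to 1.16 CPM in WT controls. The WT controls thus lay above every library of 4 of the other groups and within the range of G793A PLX5622, and Gata1 was at 0 in 18 of 23 libraries.

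Genes of the heme synthesis that all cells share kept to a narrow range. All 11 listed were tested and 0 were called by edgeR, DESeq2 or limma-voom in any comparison (7 of 121 tests below 0.05 before adjustment by edgeR), with a summed level of 297 to 319 CPM in WT PLX3397 and 302 to 314 CPM in WT controls. Alas1 had a log2 fold change of 0.04 ± 0.05 (SE) in WT PLX3397 against WT controls, and Fech, which inserts iron into the porphyrin ring, 0.07 ± 0.08. Of 16 genes for handling hemoglobin, heme and iron, all were tested and edgeR called 0 in any comparison, with 23 of 176 tests below 0.05 before adjustment. DESeq2 called 3 of those 176 and limma-voom 1. In WT PLX3397 against WT controls each called 1 of the 16, where DESeq2 called 1.91% of all genes and limma-voom 1.58%. Cd163, the hemoglobin-haptoglobin receptor of macrophages, had a log2 fold change of −0.82 ± 0.21 (adjusted p = 0.0564) in WT PLX3397 and −0.63 ± 0.21 (adjusted p = 0.248) in WT PLX5622 against WT controls by edgeR, and it was lower in WT PLX3397 by DESeq2 (adjusted p = 0.0142) and limma-voom (adjusted p = 0.0383). The iron exporter ferroportin (Slc40a1) had −0.41 ± 0.12 (adjusted p = 0.139) and −0.39 ± 0.12 (adjusted p = 0.168) in these comparisons. Heme oxygenase 1 (Hmox1), which breaks heme down, had −0.07 ± 0.15 and −0.05 ± 0.15.

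Genes of other blood cells were read beside the hemoglobin genes. Of 12 platelet genes 6 were tested and 1, Pf4, fell, with a log2 fold change of −3.69 ± 0.52 (SE, edgeR adjusted p = 6.22e-05) in WT PLX3397 and −3.84 ± 0.54 (adjusted p = 4.25e-05) in WT PLX5622 against WT controls. Pf4 is also a marker of border macrophages of the brain, and the median over the 6 genes was −0.08 in WT PLX3397 and 0.01 in WT PLX5622. Of 13 neutrophil genes 9 were tested and 1, the G-CSF receptor Csf3r, fell, with log2 fold changes of −1.09 ± 0.24 (edgeR adjusted p = 0.0146) in WT PLX3397 and −1.21 ± 0.25 (adjusted p = 0.00504) in WT PLX5622. The 9 had a median log2 fold change of 0.75 in WT PLX3397, 6 of 9 were below 0.05 before adjustment there, and so were 36 of the 99 tests in all 11 comparisons, against 8.39% of all tests. DESeq2 called 12 of the 99 and limma-voom 4. In WT PLX3397 against WT controls DESeq2 called 3 of the 9 and limma-voom 1, where 1.91% and 1.58% of all genes were called. By edgeR 1.52% of all genes were called in that comparison and 1.66% in WT PLX5622 against WT controls. The interaction with genotype was called by edgeR for Csf3r with PLX5622 (1.39 ± 0.33, adjusted p = 0.0395) and for Pf4 with PLX3397 (2.89 ± 0.65, adjusted p = 0.0387) and PLX5622 (3.33 ± 0.67, adjusted p = 0.00803), as the G793A minus the WT response. Over all genes edgeR called 0.555% in the PLX3397 interaction and 0.808% in the PLX5622 interaction. Of the 66 platelet tests 8 were below 0.05 before adjustment. The neutrophil genes S100a9 and S100a8 had estimates of the opposite sign to Csf3r. Which cells the Csf3r counts came from was not tested, so its fall is not a measure of neutrophils. S100a9, a calcium-binding alarmin of neutrophils, had 5.80, 3.62, 1.33 and 1.13 CPM in WT PLX3397 and 0.310, 0.0891 and 0.0248 CPM in WT controls. All 4 WT PLX3397 libraries were thus above all WT controls for S100a9 while all 4 were below them for hemoglobin, although the log2 fold change of S100a9, 4.39 ± 1.19, was not called by edgeR (adjusted p = 0.0916) or limma-voom but was by DESeq2 (adjusted p = 0.000424). Its partner S100a8 had 3.67, 2.12, 1.05 and 0.792 CPM in WT PLX3397 and 0.113, 0.0891 and 0.149 CPM in WT controls, with a log2 fold change of 3.96 ± 1.25 (edgeR adjusted p = 0.209, DESeq2 adjusted p = 0.00264). DESeq2 also called both genes higher than in WT controls in WT PLX5622, G793A PLX3397 and G793A PLX5622. The G793A controls, given no inhibitor, had 0.491, 0.971, 1.05 and 0.397 CPM of S100a9, also all above the WT controls. Higher S100a9 than in WT controls was thus not confined to the inhibitor groups, although for G793A controls 0 of the 9 neutrophil genes were called by the 3 tools. The 13 neutrophil genes summed to 6.70 to 18.4 CPM in WT PLX3397 and 6.00 to 6.41 CPM in WT controls. Of 12 lymphocyte genes 4 were tested, and of 8 circulating monocyte genes 6, and edgeR called 0 of either list in any comparison. Before adjustment 0 of 44 lymphocyte tests and 16 of 66 monocyte tests were below 0.05, and DESeq2 called 0 and 1, limma-voom 0 and 0.

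Genes of brain endothelial cells and mural cells, which form the vessels, and of the choroid plexus epithelium were not called in any comparison by edgeR, DESeq2 or limma-voom. Before adjustment by edgeR 11 of 110 endothelial, 5 of 88 mural and 5 of 66 choroid plexus tests were below 0.05. Of 10 brain endothelial genes, all tested, the median log2 fold change in WT PLX3397 against WT controls was −0.11, and the summed level was 326 to 363 CPM in WT PLX3397 and 350 to 374 CPM in WT controls. The tight junction gene Cldn5 had −0.29 ± 0.14 (SE, edgeR adjusted p = 0.631). The 8 mural cell genes had a median of −0.07 and a summed level of 187 to 210 CPM in WT PLX3397 and 194 to 225 CPM in WT controls. The 6 choroid plexus genes varied most, from 243 to 1163 CPM over all libraries, with 365 to 597 CPM in WT PLX3397 and 432 to 739 CPM in WT controls. The part of any of these in the hemoglobin values was not tested.

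**Figure D5:**
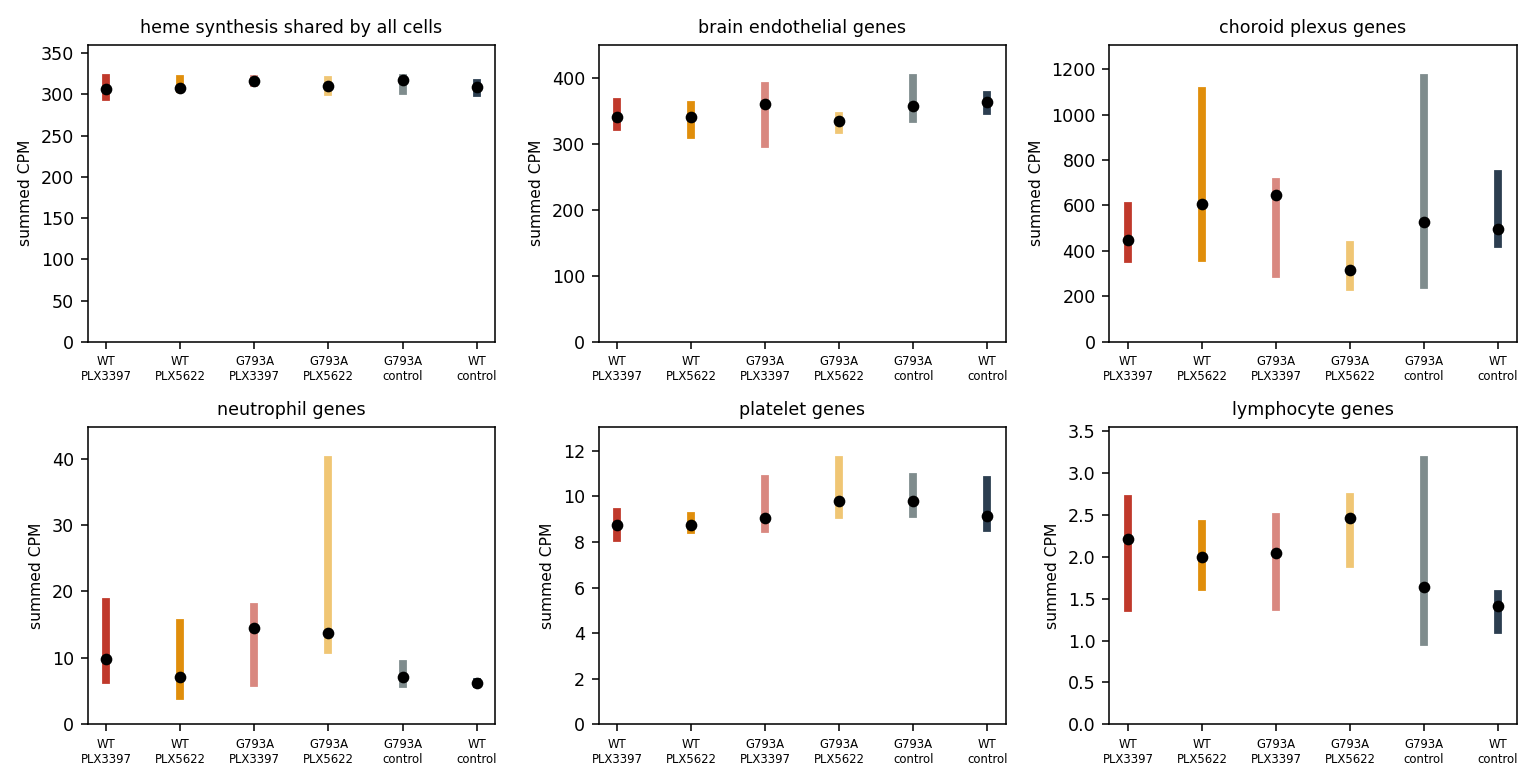
Summed CPM of 6 gene lists by group, on linear axes from 0; each bar spans the lowest to the highest library of a group and the black dot is the median (n = 4, and 3 for WT controls). Heme synthesis genes stay between 297 and 320 CPM in all groups, neutrophil genes reach 39.8 CPM in 1 library of G793A PLX5622, and in none of the 6 lists do all WT PLX3397 libraries lie below all WT controls.

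G793A PLX5622 replicate 3 was the highest library for 9 of the 20 erythroid-list genes in the table and for 8 of the 13 neutrophil genes. The share of all genes for which it was highest was not counted, and the genes named here were chosen after their values were seen. Slc4a1 was at 1.31 CPM in it, against a median of 0.0974 and a highest value of 0.448 CPM in the other 22 libraries. The erythroid factor Klf1 (0.0345 CPM, against up to 0.340 in the others), the membrane protein gene Epb42 (0.207 against up to 0.305) and Alas2 (2.45 against up to 4.49) were not highest in it. Among granule genes of immature neutrophils it was highest, with Ngp at 4.35 CPM against at most 0.495, Ltf at 2.97 against at most 0.415, Mpo at 2.17 against at most 0.343 and Elane at 0.724 against at most 0.0850. The 13 erythroid genes below the filter summed to 3.17 CPM in it and to 0.644 to 1.16 CPM in the other 22. Its hemoglobin sum, 241 CPM, was the fifth highest of the 23 libraries. Without this library the G793A PLX5622 group averaged 133 CPM of hemoglobin instead of 160, and 0 of the 5 genes were called in either case in any comparison of that group.

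Over the 13949 genes with a mean of at least 1 CPM, no gene outside the 5 followed the mean of the hemoglobin genes as closely as Alas2 did, by the Pearson correlation of deviations from group means over the 23 libraries. The 10 most alike were Zdhhc4 (0.66), Bnip5 (0.65), Fcer1g (0.65), Ddc (0.64), Aldh1a7 (0.63), Cadm4 (0.62), Fastkd1 (0.62), Ccdc160 (0.62), Abcb1b (0.62) and Rad51ap1 (0.61), with 0 genes above 0.7 against 0.88 for Alas2. By Spearman correlation 6 of these 10 were again among the 10 most alike, and by the correlation without subtracting group means 0 were. At the other end were Aim2 (−0.79), Dll4 (−0.79), Gm527 (−0.75), Llgl2 (−0.74) and Klf2 (−0.70). Dll4 is a Notch ligand of endothelial cells and Klf2 a transcription factor induced in endothelium by blood flow. The neutrophil gene S100a9 stood at 0.42, and the heme synthesis enzyme Alas1 at −0.01. With this many genes and 23 libraries these values are a description only.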

How the data were processed

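Polyadenylated brain RNA from 23 libraries was analysed. The authors deposited a table of estimated counts per gene (45.3% of values not whole) and a table of variance-stabilised log2 values. Tools in the submitters' processing notes were kallisto 0.46.1, FastQC 0.11.9 and DESeq2 1.26.0, with build GRCm39; how transcripts were summed to genes is not given there. The blank-named entry (0.00828% to 0.0151% of counts) was left out. Expected counts were rounded and fitted with edgeR 4.0.16 (quasi-likelihood, TMM, 1 term per group, all libraries, minimum count 10 and minimum total 15), with Benjamini-Hochberg adjustment over 16209 genes. CPM used TMM-scaled totals. Alternatives were DESeq2 1.42.0, limma-voom 3.58.1, other scalings and filters, a replicate block, and leaving out each library; limma on the log2 table and summed copies were added after seeing the data. The edgeR script was tested on simulated data. Members, gene lists and tests were chosen with earlier results of these data known. Named genes were the members, list genes called or most abundant or defining their list, and the 10 most and 5 least alike; the genes of G793A PLX5622 replicate 3 were chosen after their values were seen. Transcript lengths came from GENCODE M21 and promoters from RefSeq, both GRCm38 and not the authors' build. The total of 26312685 to 48174788 counts per library bounds counting error only.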

Additional observations from a re-analysis of the deposited data

Results flagged for a closer look

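The share of Hba-a1 among alpha-globin counts was 34.7% in G793A control replicate 3, away from the other 3 libraries of its group, which lay between 29.5% and 29.9%; the gap was 0.915 of the group's range. It was the single outlier among 65 tests (13 quantities in 5 groups of 4 libraries), where chance alone flags about 1 in 20. The value rests on the estimated division of reads between the 2 alpha-globin copies.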

How the results depend on the processing

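In WT PLX3397 against WT controls the number of the 5 genes called moved with the processing, while all 5 estimates stayed negative. edgeR as described called 1 (Hba-a2). Without the filter on low counts it called 0, with the replicate block 0 and with the copies summed 0; DESeq2 called 5, limma-voom 3 and limma on the deposited log2 values 3. Leaving out single libraries gave 0 to 1, with 0 for each library but WT PLX3397 replicate 3. With the compared groups alone the count was again 1, but the gene was Alas2 (edgeR adjusted p = 0.00388) and Hba-a2 was not called (adjusted p = 0.0902). The cause was not tested. In the 10 other comparisons the count was 0 under every alternative run. The Hba-a2 estimate ran from −2.48 to −1.997 with single libraries left out, its adjusted p from 0.0451 to 0.171. The replicate numbers did not pair the libraries: residuals of same-numbered libraries had a median correlation of 0.00422 over 55 pairs, against 0.00234 over 165 others. Over all genes edgeR called 247, DESeq2 310, and edgeR with the replicate block 214. The low level of Alas2, 25.1 to 147 counts, limits its precision.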
